A study of Sus scrofa with 95 samples.

Results

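The nuclear genes of oxidative phosphorylation were followed in 5 organs of infant pigs after open-heart surgery conditions. A gene counted as a member by its symbol: the NDUFA, NDUFB, NDUFC, NDUFS and NDUFV series (assembly factors NDUFAF left out), the UQCR series and CYC1, SDHA to SDHD, the COX4I, COX5, COX6, COX7 and COX8 series, and the ATP5 series. This gave 75 of the 35670 genes in the count table, 72 by the symbol in the table and 3 (NDUFA8, SDHD and ATP5MG) by the symbol paired with their gene ID. There were 32 members in complex I, 4 in complex II, 8 in complex III, 18 in complex IV and 13 in complex V. These are not all nuclear subunits: ATP5F1B, NDUFS7 and UQCRH, for example, are not among the members. Between 72 and 74 members passed the filter on low counts in an organ, and 72 passed it in all 5. NDUFA4 and NDUFA4L2, whose symbols come from complex I, were placed with complex IV, where the NDUFA4 protein is now counted.

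Complex I takes electrons from NADH and complex II takes them from succinate. Complex III hands them on to cytochrome c, complex IV passes them to oxygen, and complex V uses the proton gradient built on the way to make ATP. The genes studied here are transcribed in the nucleus and their proteins are imported, whereas a small set of core subunits is encoded by mitochondrial DNA. Heart muscle is rich in mitochondria, and several complex IV subunits have a heart and skeletal muscle form beside a common form.

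The animals weighed 5 to 10 kg. Cardiopulmonary bypass (CPB) with deep hypothermic circulatory arrest was combined with 75 mg of linrodostat, an inhibitor of the tryptophan-degrading enzyme IDO1, in 4 animals. Another 7 had the same bypass and arrest without linrodostat, and 8 were anesthesia controls. The arrest lasted 75 minutes. These arms are called linrodostat, CPB and control. RNA came from the left ventricle, liver, kidney cortex, right lower lung lobe and terminal ileum of each of the 19 animals, which gave 95 libraries. Kidney and ileum were taken just before euthanasia and the other organs just after it. All heart libraries carry a batch label of their own, so for heart, organ and batch cannot be told apart.

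Libraries held 20.0 to 53.6 M counts (median 35.1 M), and the members took 0.346% to 2.76% of them. The 9 or 10 measured defining markers of each organ (cardiomyocyte, hepatocyte, proximal tubule, alveolar and enterocyte genes) were above 0 in it. A level above 0 does not set the organs apart, since TNNI3, SFTPA1 and FABP2, markers of other organs, also passed the filter in liver. Levels are given as CPM (counts per M counts of the library) after trimmed-mean (TMM) scaling within the organ, and p-values measure the spread between these animals. In bulk tissue, fewer cells of a type and less RNA per cell cannot be told apart. Some libraries stood apart in the summed level of all 75 members: CPB animal 19 in heart, at 29540 CPM beside 16924 to 21775 CPM in the other CPB hearts; control animal 10 in heart, at 27293 CPM beside 13276 to 20033 CPM in the other control hearts; and linrodostat animal 24 in ileum, at 14151 CPM beside 6548 to 8215 CPM. The same libraries were also the highest of their arm in summed cytosolic ribosomal protein genes, at 62062, 44005 and 145440 CPM, and the part of that in the results was not tested.

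**Figure D1:**
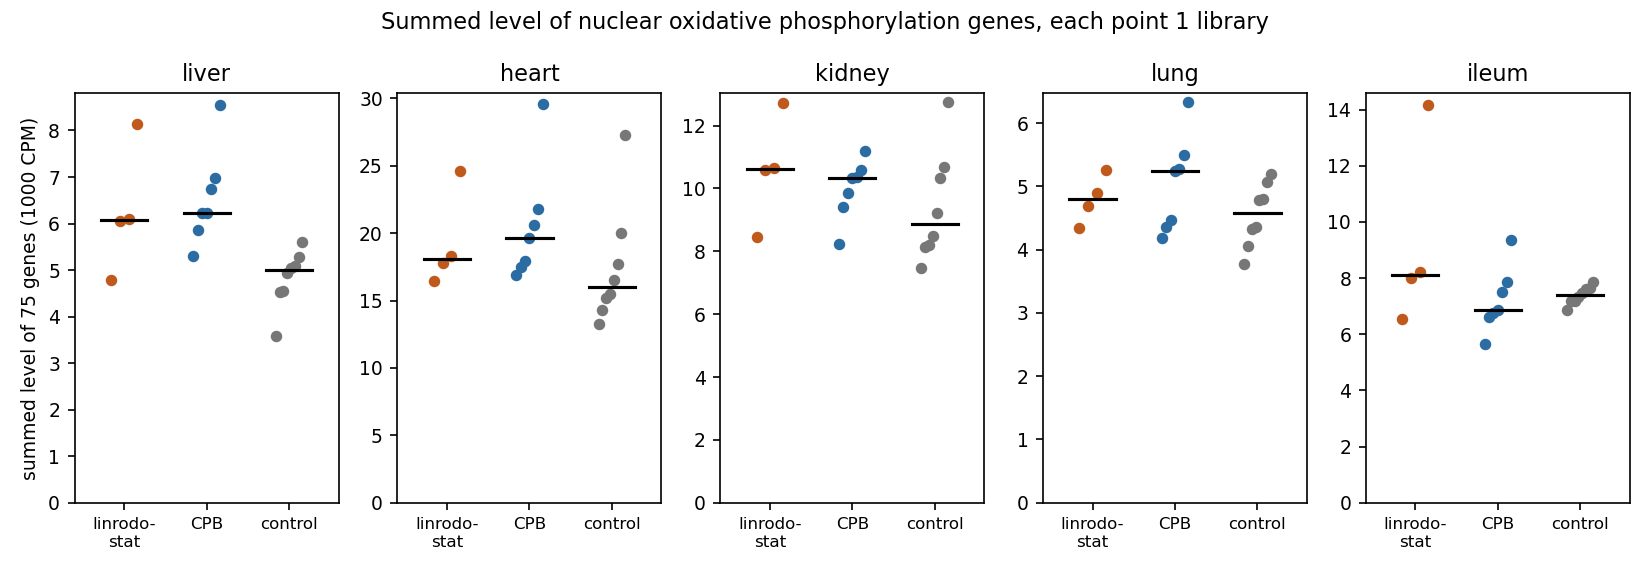
Summed level of the 75 members per library in units of 1000 CPM (each axis starts at 0), with linrodostat, CPB and control left to right in each organ and a bar at the median of the arm. In liver the CPB libraries lie at 5309 to 8546 CPM and the controls at 3574 to 5596 CPM; CPB animal 19 (29540 CPM) and control animal 10 (27293 CPM) stand above the other hearts of their arms, and linrodostat animal 24 (14151 CPM) above the other linrodostat ilea.

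After bypass and arrest, the clearest change was in liver. Of the 72 members tested there, 46 rose and 0 fell in CPB livers against control livers (edgeR quasi-likelihood test, Benjamini-Hochberg adjusted p under 0.05 over all genes of the organ). Among all 15406 genes tested in liver, 15.6% rose and 11.3% fell. The median log2 fold change of the 72 members was 0.49, against -0.03 for all genes, and 70 of the 72 lay above 0. By complex, 19 of 32 rose in complex I, 1 of 4 in complex II, 7 of 8 in complex III, 7 of 15 in complex IV and 12 of 13 in complex V. The count was 29 without CPB animal 2, the CPB liver with the highest summed level (8546 CPM), and 39 to 49 without any other single library. The same liver libraries also differed in leukocyte markers, of which 6 of 10 fell and 1 (S100A8) rose, with a summed level of 145 to 342 CPM in CPB livers and 304 to 385 CPM in control livers. The 10 hepatocyte markers gave 0 calls by edgeR and summed to 114840 to 125890 CPM in CPB livers and 85565 to 131500 CPM in control livers. Their part in the result was not tested.

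**Figure D2:**
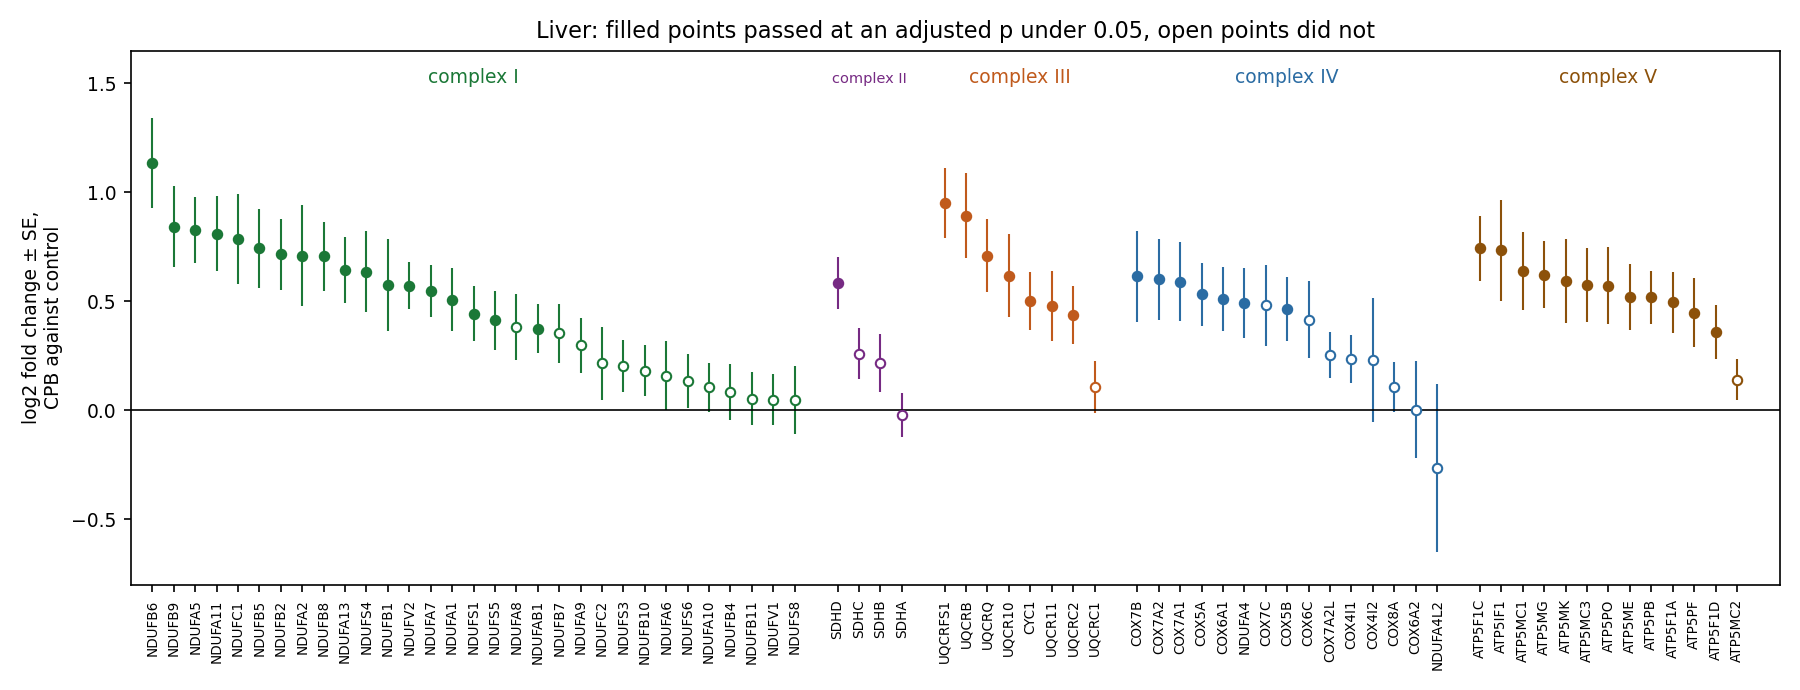
Log2 fold change of CPB against control in liver with its standard error, 1 point for each of 71 members, grouped by complex and ordered by size; filled points passed at an adjusted p under 0.05. Of the 8 complex III genes 7 are filled and of the 13 complex V genes 12, whereas in complex II only SDHD is; the lowest points are NDUFA4L2 at -0.26 and SDHA at -0.02.

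In complex I, the genes with the largest changes in liver were accessory subunits, which surround the catalytic core. NDUFB6, a subunit of the membrane arm (chr10:33849206-33865080, Sscrofa11.1), was at 25.6, 32.8, 34.3 and 69.7 CPM in the 4 linrodostat livers, at 35.7 to 54.5 CPM (median 40.8) in CPB livers and at 12.4 to 26.5 CPM (median 22.1) in control livers. No CPB liver reached down to the control range, while the lowest linrodostat liver lay inside it. Its log2 fold change for CPB against control was 1.13 ± 0.21 (SE; adjusted p 0.000934, edgeR), the largest of the 72 members.

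NDUFA5, an accessory subunit of the peripheral arm, was at 28.6, 34.8, 35.6 and 58.1 CPM in linrodostat livers, 32.9 to 56.6 CPM (median 44.5) in CPB livers and 18.7 to 29.8 CPM (median 24.4) in control livers. Here too the CPB and control livers did not overlap (log2 fold change 0.83 ± 0.15, adjusted p 0.000928, edgeR). NDUFB9 rose by 0.84 ± 0.19 on the log2 scale, with CPB livers at 145 to 303 CPM and control livers at 80.1 to 161 CPM, so that the arms overlapped. NDUFA11 rose by 0.81 ± 0.17, with CPB livers at 31.1 to 67.8 CPM and control livers at 15.2 to 31.0 CPM.

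Among the core subunits of complex I, the iron-sulfur subunits NDUFV2 and NDUFS1 rose, at log2 fold changes of 0.57 and 0.44. NDUFS3, NDUFV1, which binds NADH, and NDUFS8 had values of 0.20, 0.05 and 0.05 and did not pass. Among the 26 accessory subunits 16 rose, and their median log2 fold change was 0.53. The last member to pass the threshold was NDUFB1 (adjusted p 0.0495) and the first to miss it was NDUFB7 (adjusted p 0.0604).

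Complex II also belongs to the citric acid cycle, and its 4 genes did not move alike. SDHD, a membrane anchor (chr9:39790654-39803602), was at 92.5, 110, 125 and 146 CPM in linrodostat livers, 99.3 to 159 CPM (median 117) in CPB livers and 73.2 to 96.7 CPM (median 82.0) in control livers, with no overlap between CPB and control (log2 fold change 0.58 ± 0.12, adjusted p 0.00184, edgeR). SDHA, the flavoprotein that oxidizes succinate, was at 149, 162, 167 and 205 CPM in linrodostat livers, 171 to 236 CPM (median 195) in CPB livers and 177 to 240 CPM (median 204) in control livers. Those ranges overlapped almost whole, and the log2 fold change was -0.02 ± 0.10. SDHB and SDHC had values of 0.22 ± 0.13 and 0.26 ± 0.12 and did not pass.

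In complex III, UQCRFS1, the Rieske iron-sulfur protein, had the smallest p of all members. It was at 109, 139, 158 and 210 CPM in linrodostat livers, 117 to 238 CPM (median 149) in CPB livers and 59.6 to 104 CPM (median 84.8) in control livers. Every linrodostat and every CPB liver lay above every control liver, and the log2 fold change for CPB against control was 0.95 ± 0.16 (adjusted p 0.000554, edgeR). The highest CPB value, 238 CPM, was again that of animal 2.

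UQCRB, a small accessory subunit of complex III, was at 66.3, 93.0, 93.5 and 174 CPM in linrodostat livers, 84.2 to 160 CPM (median 125) in CPB livers and 33.4 to 77.9 CPM (median 68.0) in control livers, with no overlap between CPB and control (0.89 ± 0.20, adjusted p 0.00300, edgeR). UQCRQ and UQCR10, likewise small accessory subunits, rose by 0.71 ± 0.17 and 0.62 ± 0.19 on the log2 scale with overlapping arms. CYC1, the cytochrome c1 gene, and UQCRC2 rose by 0.50 and 0.44. UQCRC1, a core protein, had 0.11 ± 0.12 and was the only complex III gene that did not pass.

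In complex IV the calls were divided. COX7B, a small subunit, was at 82.2, 129, 145 and 225 CPM in linrodostat livers, 112 to 177 CPM (median 144) in CPB livers and 43.5 to 125 CPM (median 99.8) in control livers, a log2 fold change of 0.61 ± 0.21 that passed (adjusted p 0.0352, edgeR). COX5A was at 76.6, 104, 107 and 123 CPM in linrodostat livers, 82.5 to 148 CPM (median 93.2) in CPB livers and 51.5 to 94.1 CPM (median 70.5) in control livers, and rose by 0.53 ± 0.14 (adjusted p 0.0105, edgeR). The arms overlapped for both genes. The COX7B call was lost with no filter on low counts and without any 1 of CPB animals 2, 9, 21 and 25 and control animals 1, 10, 15 and 26 (log2 fold changes of 0.51 to 0.62). COX7A2 and COX7A1, the common form and the muscle form of the same subunit, rose by 0.60 ± 0.18 and 0.59 ± 0.18, so that the COX7A1 share of their summed CPM had a median of 39.5% in CPB livers and 41.9% in control livers. COX4I1, the common form of subunit IV, had 0.23 ± 0.11 and did not pass, nor did COX8A at 0.11 ± 0.11. NDUFA4, COX6A1 and COX5B rose by 0.49, 0.51 and 0.46. Without CPB animal 2 the calls of COX7A1, COX7A2, UQCR10 and ATP5IF1 were also lost, at log2 fold changes of 0.54, 0.53, 0.52 and 0.69.

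In complex V nearly every member rose, from the rotor to the stalk. ATP5F1C, the gamma subunit of the central shaft, was at 116, 151, 162 and 204 CPM in linrodostat livers, 154 to 241 CPM (median 176) in CPB livers and 68.4 to 132 CPM (median 121) in control livers, with no overlap between CPB and control (log2 fold change 0.74 ± 0.15, adjusted p 0.00166, edgeR). ATP5IF1, which blocks ATP hydrolysis by the enzyme, was at 69.7, 81.0, 93.3 and 181 CPM in linrodostat livers, 70.0 to 140 CPM (median 126) in CPB livers and 39.8 to 123 CPM (median 67.2) in control livers. It rose by 0.73 ± 0.23 with overlapping arms. ATP5MC1 and ATP5MC3 encode the same mature c subunit of the rotor ring and rose by 0.64 and 0.57, whereas ATP5MC2, the other gene for that subunit, had 0.14 ± 0.09 and did not pass. ATP5MG, a membrane subunit, rose by 0.62 ± 0.15, and the peripheral stalk genes ATP5PB, ATP5PO and ATP5PF rose by 0.52, 0.57 and 0.45.

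Outside the liver few members passed the test. In heart, 2 of 74 members rose and 1 fell in CPB against control, where 6.39% of all genes rose and 5.53% fell. An unadjusted p under 0.05 was reached by 17 of 74 members, beside 4165 of all 14890 genes. The members' median log2 fold change was 0.26 (all genes -0.02), with 67 of 74 above 0. This depended on the hearts that stood apart: without CPB animal 19 there were 0 rises by edgeR, 6 members at an unadjusted p under 0.05 and a median of 0.12; without control animal 10 there were 11 rises and a median of 0.41; and without both there were 6 rises, 1 fall and a median of 0.27. There were 0 rises by edgeR also without control animal 1, 4, 7, 14, 15 or 26 or CPB animal 25, and 1 rise without control animal 13 or CPB animal 11 or 21. DESeq2 gave 4 rises and 1 fall, beside 1298 rises and 1163 falls among all 14890 genes.

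NDUFA4L2, a relative of NDUFA4 that is known as a hypoxia-induced gene in human and mouse cells (chr5:22540482-22548418), was the heart gene that fell. It was at 4.90, 5.33, 10.6 and 10.6 CPM in linrodostat hearts, 3.78 to 9.40 CPM (median 6.02) in CPB hearts and 8.41 to 15.3 CPM (median 14.0) in control hearts. A single CPB heart, that of animal 25, lay within the control range, as did both higher linrodostat hearts. The log2 fold change was -0.97 ± 0.22 (adjusted p 0.00603, edgeR), and the call was kept without any 1 library and without both libraries that stood apart. In the other organs its value was -1.32 ± 0.61 in kidney, -0.27 ± 0.12 in lung, -0.31 ± 0.40 in ileum and -0.26 ± 0.39 in liver, none of which passed. The kidney value came with control animals 14 and 15, at 5.87 and 9.68 CPM; the kidney medians were 1.00 CPM in CPB and 0.95 CPM in control, and without control animal 15 the value was -0.585 ± 0.51.

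NDUFC1, an accessory subunit of complex I, was at 13.1, 21.1, 28.9 and 37.6 CPM in linrodostat hearts, 18.1 to 71.1 CPM (median 32.6) in CPB hearts and 13.8 to 35.1 CPM (median 16.1) in control hearts. CPB animal 19 was the highest of all hearts and control animal 10 the highest of the control hearts, and the log2 fold change was 0.88 ± 0.28 (adjusted p 0.0454, edgeR). UQCRFS1 rose in heart as well, by 0.52 ± 0.16 (adjusted p 0.0399, edgeR), with CPB hearts at 364 to 708 CPM (median 405) and control hearts at 229 to 458 CPM (median 309). Both rises were lost without CPB animal 19.

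In kidney, 0 of 73 members rose and 2 fell by edgeR, where 11.3% of all genes rose and 9.86% fell. DESeq2 called 0 rises and 3 falls, beside 2148 rises and 2324 falls among all 17653 genes. By edgeR 8 members and 6256 of all genes were at an unadjusted p under 0.05. NDUFS1, a core iron-sulfur subunit of complex I (chr15:109413726-109451813), was at 90.1, 95.7, 104 and 107 CPM in linrodostat kidneys, 84.8 to 106 CPM (median 95.5) in CPB kidneys and 103 to 155 CPM (median 117) in control kidneys. The arms overlapped at their edges, and the log2 fold change was -0.34 ± 0.09 (adjusted p 0.0114, edgeR). COX6B2, a subunit form known from testis, fell by 1.46 ± 0.40 on the log2 scale from very few reads, with 3 to 34 counts per kidney library. The count was 4 without control animal 15.

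In lung, 3 of 73 members rose and 0 fell, where 2.08% of all genes rose and 2.62% fell. By edgeR 29 members and 3962 of all 17849 genes were at an unadjusted p under 0.05. DESeq2 called 5 rises among the members, beside 755 rises and 976 falls among all genes. NDUFB2, an accessory subunit of complex I, was at 17.1, 23.2, 23.4 and 24.0 CPM in linrodostat lungs, 13.9 to 37.0 CPM (median 21.3) in CPB lungs and 11.3 to 20.6 CPM (median 14.1) in control lungs (log2 fold change 0.66 ± 0.18, adjusted p 0.0376, edgeR). NDUFB9, of the same arm of complex I, rose by 0.65 ± 0.17 and ATP5PF, of the ATP synthase stalk, by 0.36 ± 0.10. The arms overlapped in each. The count of rises ran from 0 to 9 with 1 library left out: it was 9 without CPB animal 6, and 0 without control animal 1, 7, 10 or 26 or CPB animal 19, 21 or 25. The lungs of control animal 1 and CPB animal 25 differed in composition, as their 10 most counted genes took 27.03% and 24.5% of counts. In the other lungs that share was 4.597% to 6.489%. Without both of these lungs 0 members rose, 11 were at an unadjusted p under 0.05 by edgeR and the members' median was 0.186. The part of that composition in the lung calls was not tested.

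In ileum, 0 of 73 members were called by edgeR or DESeq2. Among all 17869 genes edgeR called 0%, and DESeq2 5 rises and 11 falls. By edgeR 932 of all genes were at an unadjusted p under 0.05, among them 1 member. That was NDUFB10, an accessory subunit of complex I, at 56.1, 65.6, 65.9 and 121 CPM in linrodostat ilea, 52.8 to 71.9 CPM (median 67.1) in CPB ilea and 61.0 to 87.7 CPM (median 84.4) in control ilea (log2 fold change -0.32 ± 0.14). The next smallest p-values were those of NDUFA6 and NDUFS5, at -0.39 ± 0.20 and -0.30 ± 0.19. The median of all members was -0.07.

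**Figure D3:**
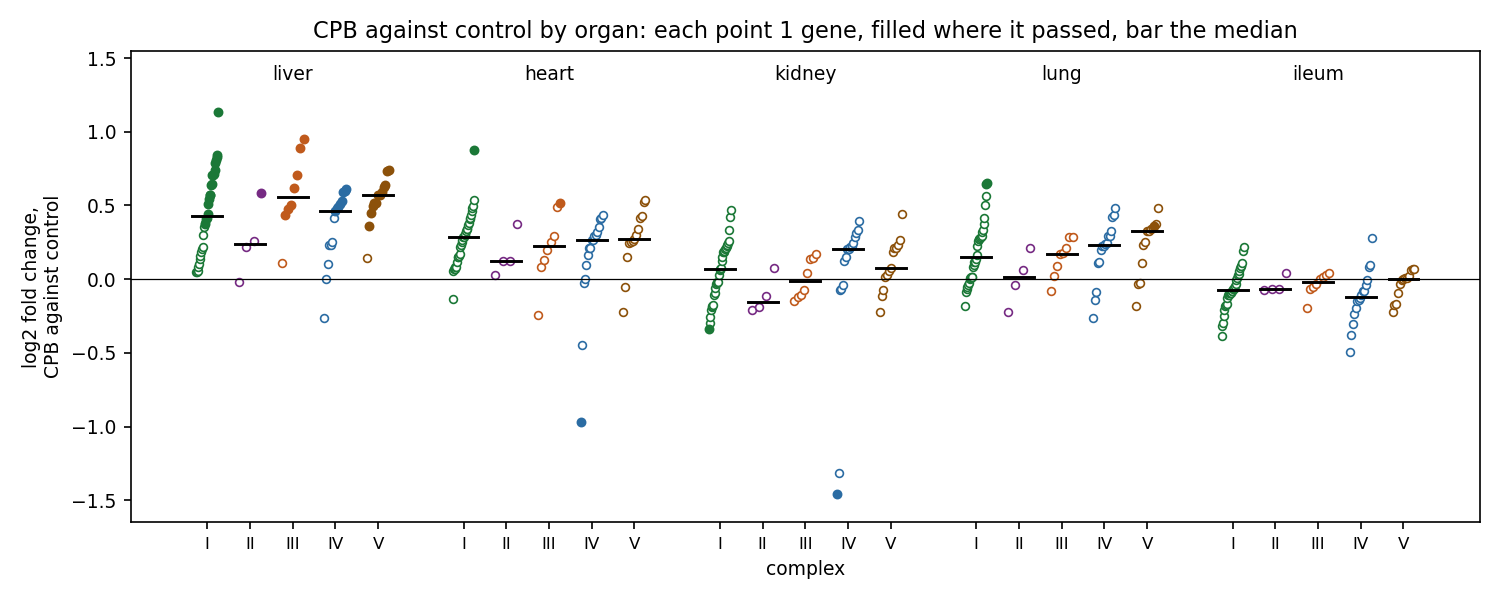
Log2 fold change of CPB against control for each member tested, by complex within each organ; filled points passed at an adjusted p under 0.05 in that organ and bars are medians. Most points of the liver are filled and above 0, few are filled elsewhere, and the ileum medians lie at or below 0 or close to it.

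Whether the CPB effect differed between organs was tested in 1 fit of all 95 libraries. That fit had no term for the animal, so the 5 organs of an animal entered as separate libraries. Counts with the animal as a block are given at the end. The F test across the 5 organs passed for 10 of 74 members, where 12.9% of all genes passed, so the members' share was near the background. The liver effect exceeded the heart effect for 3 members, the ileum effect for 10, the kidney effect for 13 and the lung effect for 2, and fell below it for 0 in each. Among all genes, 3.55%, 4.47%, 2.01% and 2.27% were higher in liver in those 4 contrasts. The 13 against kidney include COX6B2 (2.62 ± 0.81, adjusted p 0.0498, edgeR), which had 0 to 9 counts per liver library. It was not among the members tested in liver alone. Liver was set against the other organs because most members had passed there, so the direction is no independent support. With liver and lung, the only genes were UQCRFS1 (liver minus lung 0.75 ± 0.20) and COX5A (0.63 ± 0.19), and limma-voom called 1 member in that contrast.

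UQCRFS1 had the smallest p of the F test (adjusted p 0.00170, edgeR). Its log2 fold change was 0.95 in liver, 0.52 in heart, 0.17 in lung, 0.14 in kidney and -0.07 in ileum; the liver effect exceeded those of ileum, kidney and lung, and its excess over heart, 0.42 ± 0.20, did not pass (adjusted p 0.225, edgeR). SDHD had 0.58 in liver against 0.03 in heart, 0.06 in lung, -0.07 in ileum and -0.21 in kidney. Its liver effect exceeded those of heart, ileum and kidney, by 0.54, 0.61 and 0.80.

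NDUFS1 was called in opposite directions, up in liver (0.44 ± 0.13) and down in kidney (-0.34 ± 0.09), and the difference of 0.79 ± 0.17 passed (adjusted p 0.00202, edgeR). ATP5F1D, the delta subunit of the ATP synthase shaft, rose by 0.36 ± 0.12 in liver, a call lost with no filter on low counts and without any 1 of CPB animals 2, 11 and 25 and control animals 4, 10, 13, 14 and 15, and had values of -0.22 in heart, -0.18 in lung, -0.22 in kidney and -0.22 in ileum, none of which passed. Its liver effect exceeded those of heart, ileum and kidney; the excess over lung, 0.50 ± 0.16, missed the threshold (adjusted p 0.0504, edgeR). UQCRQ had 0.71 in liver and -0.24 in heart, a difference of 0.95 ± 0.25 that passed (adjusted p 0.0111, edgeR). NDUFA5, UQCRB, NDUFB6, COX5A and NDUFA8, an accessory subunit, made up the rest of the 10.

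**Figure D4:**
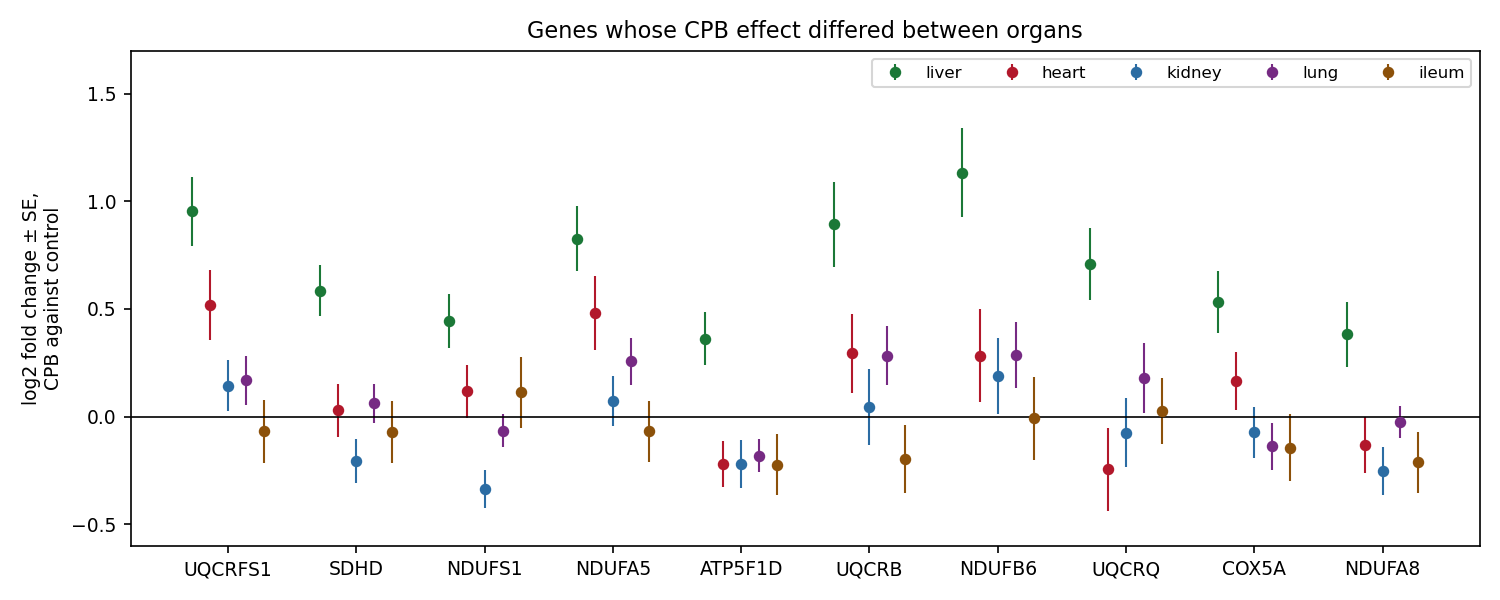
Log2 fold change of CPB against control with its standard error in liver, heart, kidney, lung and ileum for the 10 members that passed the F test across organs, ordered by p. The liver point is the highest for every gene shown, and NDUFS1 in kidney (-0.34) and ATP5F1D outside the liver (-0.18 to -0.22) lie below 0.

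Linrodostat was compared first with CPB alone. In liver 0 of 72 members passed by edgeR or DESeq2, where 0.772% of all genes passed by edgeR. An unadjusted p under 0.05 was reached by 0 members, beside 1297 of all 15406 genes. The members' log2 fold changes ran from -0.26 ± 0.16 (SDHB, the iron-sulfur subunit of complex II) to 0.68 ± 0.34 (COX4I2, the second form of subunit IV), with a median of -0.02 and a median SE of 0.18, so differences of that size could not be resolved. Without linrodostat animal 12, the highest of its arm in summed level (8140 CPM) and in ribosomal protein genes (55578 CPM), the median was -0.19 and 4 members were at an unadjusted p under 0.05.

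In heart, kidney and lung 0 members passed by edgeR or DESeq2, and 0% of all genes passed by edgeR in each. The members' medians were -0.13 in heart, 0.08 in kidney and -0.07 in lung; the heart median was 0.01 without the 2 hearts that stood apart in the CPB and control arms. At an unadjusted p under 0.05 there were 0 members in heart, 1 in kidney and 0 in lung. Among all genes there were 901 of 14890, 822 of 17653 and 462 of 17849.

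In ileum, 0 of 73 members passed against CPB by edgeR, where 0% of all genes passed. DESeq2 called 3, beside 56 rises and 41 falls among all 17869 genes. At an unadjusted p under 0.05 there were 35 members, or 14 of 32 in complex I, 1 of 4 in complex II, 6 of 8 in complex III, 6 of 16 in complex IV and 8 of 13 in complex V; 9.18% of all genes were. The members' median log2 fold change was 0.44, against 0.06 for all genes. Most of this came with 1 library, that of linrodostat animal 24. Without it, 9 members and 1646 of all 18244 genes were at an unadjusted p under 0.05, and the members' median was 0.10.

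COX6C, a small subunit of complex IV, had the smallest p there. It was at 250, 357, 368 and 437 CPM in linrodostat ilea, 159 to 282 CPM (median 187) in CPB ilea and 188 to 257 CPM (median 201) in control ilea. Only 1 linrodostat ileum, that of animal 12, lay within the range of the CPB ilea, and the log2 fold change for linrodostat against CPB was 0.84 ± 0.18 (unadjusted p 0.000130, adjusted p 0.388, edgeR). ATP5PO, of the ATP synthase stalk, was at 212, 280, 312 and 480 CPM in linrodostat ilea, 148 to 249 CPM (median 159) in CPB ilea and 150 to 201 CPM (median 165) in control ilea, a log2 fold change of 0.83 ± 0.19 against CPB (adjusted p 0.423, edgeR).

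Against control, with the same control animals as above, 32 of 72 members rose and 0 fell in linrodostat livers, where 12.9% of all genes rose and 8.88% fell. By complex this was 13 of 32, 1 of 4, 6 of 8, 5 of 15 and 7 of 13 for complexes I to V, with a median of 0.46 (all genes 0.00). UQCRFS1 had 0.97 ± 0.18, NDUFB6 1.03 ± 0.24, NDUFB5 0.89 ± 0.21 and NDUFA5 0.73 ± 0.17 on the log2 scale. The count rested on linrodostat animal 12: without it, 4 members rose. It was 19 without linrodostat animal 18, 21 without linrodostat animal 24, 37 without linrodostat animal 20, and 18 with no filter on low counts.

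In heart, linrodostat against control gave 0 of 74 members by edgeR and by DESeq2, where 2.04% of all genes passed by edgeR. An unadjusted p under 0.05 was reached by 3 members and 2353 of all 14890 genes. In lung it gave 0 of 73 by both tools, where 2.35% of all genes passed by edgeR. There 8 members and 3087 of all 17849 genes were at an unadjusted p under 0.05. In kidney, where 20% of all genes passed, 1 member rose and 1 fell: NDUFV2, a core subunit of complex I, with 0.48 ± 0.15, and NDUFS1 with -0.31 ± 0.11. That count of 2 was 0 without linrodostat animal 12 or 18, 6 without linrodostat animal 20, and 1 without control animal 4, 7, 10, 14 or 26. In ileum 0 of 73 passed by edgeR, where 0.213% of all genes did. ATP5PO came nearest with 0.89 ± 0.19 (adjusted p 0.0503, edgeR). DESeq2 called 13 members, beside 514 rises and 319 falls among all 17869 genes. By edgeR 32 members and 2463 of all genes were at an unadjusted p under 0.05. Leaving out linrodostat animal 12 gave 12 rises among the members in ileum, beside 243 among all 18175 genes. Leaving out control animal 14 gave 1, beside 56 among all 17802 genes. Without linrodostat animal 24 there were 0, with 18 members and 2527 of all 18244 genes at an unadjusted p under 0.05.

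The members' levels were also compared between control organs. Levels in this comparison are CPM scaled over all 95 libraries, so they differ from the values within an organ above. The summed level of the 75 members was 19191 to 39258 CPM in control hearts (median 23400), 6358 to 10510 CPM in livers (median 8768), 5938 to 10292 CPM in kidneys (median 7058), 5092 to 5917 CPM in ilea (median 5368) and 2580 to 3626 CPM in lungs (median 3150). Liver and kidney overlapped, and no other neighbours in this order did.

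Each control organ was tested against the mean of the other 4, in the same fit of all 95 libraries with no term for the animal. In heart 71 of 74 members were higher and 3 lower, where 28.7% of all genes were higher and 38.2% lower, with a median log2 difference of 2.12 (all genes -0.23). The lower genes were COX6A1 and COX8A, common forms of subunits VIa and VIII, and COX7A2L, a factor of respiratory supercomplexes. In lung 2 were higher (COX4I2 and NDUFA4L2) and 70 lower, where 31.4% and 26.9% of all genes were, with a median of -1.62 (all genes 0.01). In ileum 2 were higher and 65 lower, where 33.4% and 28.8% of all genes were (median -0.66, all genes 0.01); in kidney 13 were higher and 11 lower, where 31.1% and 26.6% of all genes were (median 0.01, all genes 0.00); and in liver 31 were higher and 9 lower, where 31.5% and 32.6% of all genes were (median 0.21, all genes -0.14). These contrasts lean on the heart: with heart left out, 10 members were higher and 15 lower in ileum (median -0.06, all genes 0.10), 62 higher and 3 lower in kidney (median 0.51, all genes 0.00) and 64 higher and 3 lower in liver (median 0.69, all genes -0.34).

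The summed level of complex II followed the same order of organs as all members. Its medians were 1612 CPM in hearts, 866 in livers, 679 in kidneys, 356 in ilea and 212 in lungs. SDHA followed that order and SDHC did not. SDHA was at 885 ± 90.3 CPM in control hearts, 365 ± 44.3 in livers, 292 ± 59.3 in kidneys, 157 ± 26.3 in ilea and 82.4 ± 5.92 in lungs (SD, n = 8 each). SDHC, a membrane anchor of the same complex, was at 153 ± 27.8 CPM in hearts, 172 ± 18.5 in livers, 156 ± 45.6 in kidneys, 52.6 ± 7.26 in ilea and 32.8 ± 6.22 in lungs. The heart thus stood above the liver for SDHA with no overlap, but for SDHC (112 to 199.5 CPM) lay within the kidney range and overlapped the liver range. The gene's largest log2 excess over the other organs was in liver (1.10 ± 0.10).

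The alternative forms of complex IV subunits divided the organs most sharply. COX6A2, the heart and muscle form of subunit VIa, was at 412 ± 110 CPM in control hearts and at 5.80 ± 0.99 in livers, 5.00 ± 0.45 in kidneys, 4.91 ± 0.48 in ilea and 4.82 ± 0.96 in lungs, while COX6A1, the common form, was at 64.6 ± 31.6 CPM in hearts against 209 ± 33.0 in livers, 184 ± 40.8 in kidneys, 126 ± 6.84 in ilea and 88.1 ± 14.3 in lungs. Counts are not corrected for gene length, so a share of one form is set only between organs or arms. COX6A2 made up 80.7% to 90.9% of the summed CPM of the pair in linrodostat hearts (median 86.5%), 75.0% to 91.4% in CPB hearts (median 90.4%) and 82.2% to 92.8% in control hearts (median 86.6%). The 3 arms overlapped throughout, and COX6A2 itself had a CPB log2 fold change of 0.00 ± 0.16 in heart.

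COX7A1, the heart and muscle form of subunit VIIa, was at 434 ± 171 CPM in control hearts, 66.1 ± 17.3 in kidneys, 45.0 ± 10.9 in livers, 9.60 ± 1.20 in lungs and 8.35 ± 5.94 in ilea. Unlike COX6A2, it thus kept a level in kidney and liver above those of lung and ileum, with no overlap. COX8H, a form of subunit VIII (chr2:69199-70730), was near absent in the control organs other than heart. It had 2751 to 5697 counts per control heart library. There were 0 in all 8 control livers and all 8 control lungs, at most 5 in control ilea and at most 6 in control kidneys. A count of 0 allows up to 3 counts, or 0.0603 to 0.0897 CPM in the livers and 0.0559 to 0.0921 CPM in the lungs, for counting error only. Some kidneys of the surgical arms were higher, with CPM scaled within the organ. COX8H was at 2.38 CPM in linrodostat animal 12, 1.03 in CPB animal 9 and 0.923 in CPB animal 6. The other surgical kidneys had 0 to 0.0601 CPM and the control kidneys 0 to 0.151 CPM. COX7B2 had at most 5 counts in any library, and COX6B1 and COX8C, other forms of these subunits, were not analysed here.

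The lung had the highest mean levels of the forms known from lung or from low oxygen. NDUFA4L2 was at 36.8 ± 6.11 CPM in control lungs, 18.1 ± 4.31 in hearts, 3.58 ± 1.63 in ilea, 1.98 ± 2.61 in kidneys and 0.59 ± 0.25 in livers. COX4I2 was at 16.2 ± 4.10 CPM in control lungs, 9.77 ± 3.41 in hearts, 2.38 ± 0.76 in ilea, 2.32 ± 0.51 in kidneys and 0.91 ± 0.34 in livers. Lung and heart did not overlap for NDUFA4L2 but did for COX4I2. The NDUFA4L2 share of its pair with NDUFA4 was 47.8% to 55.5% in linrodostat lungs, 32.7% to 54.1% in CPB lungs and 39.9% to 61.8% in control lungs, against 0.24% to 0.74% in control livers.

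**Figure D5:**
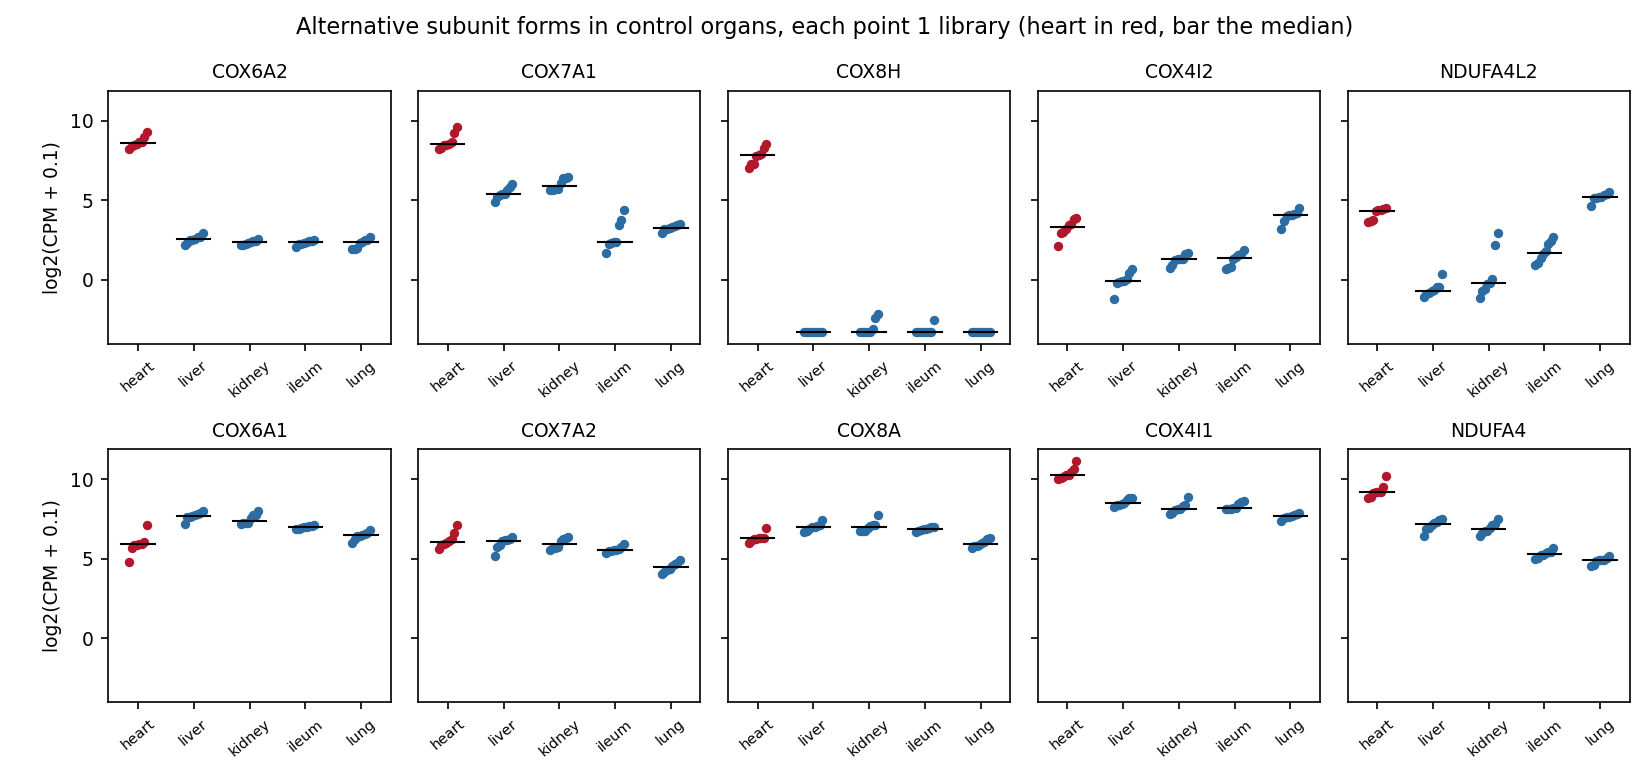
Level of 5 alternative forms (top row) and their common partners (bottom row) in the 8 control libraries of each organ, as log2(CPM + 0.1) scaled over all libraries, with a bar at the median. Hearts lie above all other organs for COX6A2, COX7A1 and COX8H and have the lowest median for COX6A1, lungs have the highest medians for COX4I2 and NDUFA4L2, and livers and lungs lie at the floor for COX8H.

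Other genes of the pathway were read from lists in the same liver test of CPB against control, in which 15.6% of all genes rose and 11.3% fell; each count below stands beside that background, and no list was tested as a set. Of 15 tested regulators of mitochondrial genes, 8 rose and 0 fell (median log2 fold change 0.40). TFB2M, a factor needed to start transcription of mitochondrial DNA, rose by 1.5 ± 0.2, with 22.7 to 43.5 CPM in linrodostat livers, 14.8 to 37.5 CPM in CPB livers and 6.63 to 13.7 CPM in control livers, so that neither surgical arm overlapped the controls. ESRRA, a nuclear receptor that drives genes of oxidative metabolism, rose by 0.69 ± 0.14, and TFAM, which packs and transcribes mitochondrial DNA, by 0.61 ± 0.12.

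Assembly factors rose for complex I in 9 of 18 cases (median 0.40) and for complex IV in 14 of 25 (median 0.46), with 0 falls in either list. NDUFAF4 rose by 1.47 ± 0.22 and TMEM126A by 1.21 ± 0.19, both needed to build complex I. HIGD1A, a small inner membrane protein tied to complex IV, rose by 2.17 ± 0.36, with CPB livers at 42.0 to 178 CPM and control livers at 11.0 to 64.8 CPM, and SCO1, a copper chaperone, rose by 0.80 ± 0.14. For complex II 1 of 3 rose (SDHAF1), for complex III 2 of 6 rose (UQCC2 and TTC19), and for complex V 0 of 6 were called, with a median of 0.05.

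Among 19 genes of electron carriers and exchange 4 rose and 1 fell, with a median of 0.13, a share that rose close to the 15.6% of all genes. CYCS, cytochrome c itself, rose by 1.92 ± 0.28, at 152 to 383 CPM in linrodostat livers, 134 to 432 CPM in CPB livers and 30.8 to 102 CPM in control livers, and no library of either surgical arm reached the control range. SLC25A3 and SLC25A5, which carry phosphate and adenine nucleotides across the inner membrane, rose by 0.81 and 0.74, and UCP2 fell by 0.58. Of 20 genes of the citric acid cycle and its entry 8 rose, SUCLA2 by 1.05 and OGDH by 0.66 among them, and 1 fell, PDK2, a kinase that holds back pyruvate dehydrogenase, by 0.88.

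The 13 subunits encoded by mitochondrial DNA went with most nuclear members in heart and lung and against most of them in liver. In kidney their median was 0.51, beside 0.07 for the nuclear members, of which 44 of 73 lay above 0. Values for ileum are not given here. In liver 2 of the 13 lay above 0 and the median was -0.31; COX1 fell by 0.44 ± 0.15. ATP8 passed with a log2 fold change of 4.10 ± 1.07 that came from a single library: CPB animal 21 was at 665 CPM, the other CPB livers were at 2.77 to 12.9 CPM and control livers at 3.72 to 11.3 CPM. Without that library the value was 0.31 ± 0.32 and did not pass. In heart, kidney and lung all 13 lay above 0 in each organ, with medians of 0.37, 0.51 and 0.47 and 3, 4 and 2 that rose, where 6.39%, 11.3% and 2.08% of all genes rose. Ribosomal protein genes moved with the nuclear members in liver: 57 of 77 cytosolic ones rose and 2 fell (median 0.48), and 40 of 69 mitochondrial ones rose and 0 fell (median 0.45). In heart, kidney, lung and ileum the cytosolic medians were 0.26, 0.37, 0.41 and 0.03, beside 0.26, 0.07, 0.21 and -0.07 for the nuclear members.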

How the data were processed

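Estimated counts per gene were used, which the authors deposited for 95 libraries; bcl2fastq, cutadapt, Trim Galore, STAR, Salmon and MultiQC and the build Sscrofa11.1 are named in the submitters' processing notes, and RNA was poly(A)-selected and read in pairs per the labels' protocols. The counts were rounded to whole numbers. Symbols came from the table or, for 3 members, from a gene ID table; positions came from RefSeq (Sscrofa11.1), which placed 46 members. The members and lists were chosen with earlier results of these data known.

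Each organ was fitted apart with edgeR 4.0.16 in R 4.3.3 (filterByExpr by arm, TMM, robust quasi-likelihood, all 19 libraries, Benjamini-Hochberg over all genes tested, threshold 0.05, two-sided); SE is the fold change over the square root of F. CPM is the count divided by the TMM library size in M counts. Organ differences were tested in 1 fit of all 95 libraries, with groups of organ and arm and no term for the animal. Named in liver were up to 4 passing members per complex with the largest change and at least 10 CPM; elsewhere up to 2 per complex and direction, or the smallest p-values; the alternative forms and SDH genes; the 10 first in the F test; and listed genes that passed in liver. Core subunits and other members were added after their values were seen.

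All 5 organs of an animal share its number. Deviations from group means over 12940 genes correlated between organs of 1 animal (medians 0.120 to 0.294, against -0.0614 to -0.0227 between animals), so the animal is a block among the alternatives. No pair of libraries of a group looked like a copy: at most 0.611% of counts were equal. Alternatives were DESeq2 1.42.0, limma 3.58.1 voom, median-ratio size factors, no filter, sex as a covariate, only the arms compared, and each library left out. The fit was tested on simulated data. The promoter motif search that had been planned was not run. The values of 1 gene are not reported here by name.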

Additional observations from a re-analysis of the deposited data

Results flagged for a closer look

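The summed level of the 75 members in heart was 29540 CPM in CPB animal 19, far from the other CPB hearts. NDUFC1 stood far out in the same heart library at 71.1 CPM among CPB hearts, and in that of control animal 10 at 35.1 CPM among control hearts. NDUFB10 in ileum was 52.8 CPM in CPB animal 25, below the other CPB ilea. ATP5MC1 in liver was 19.0 CPM in control animal 15, below the other control livers. UQCRFS1 in liver was 238.0 CPM in CPB animal 2, above the other CPB livers. These were 6 of 71 groups checked, and chance alone sets a sample apart in about 1 group of 20 (Dixon's test at 95%).

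The CPB effect differed between organs for 10 of 74 members by the F test of edgeR's joint fit. Among all genes 12.9% passed, so the members' share was near the background. The adjusted p was 0.00170 for UQCRFS1, 0.00382 for SDHD, 0.00683 for NDUFS1, 0.00723 for NDUFA5 and 0.0177 for ATP5F1D. It was 0.0199 for UQCRB, 0.0258 for NDUFB6, 0.0340 for UQCRQ, 0.0416 for COX5A and 0.0474 for NDUFA8.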

How the results depend on the processing

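With the animal as a replicate block (voom with an estimated correlation), the F test across organs gave 11 members, and the liver effect exceeded those of heart, ileum, kidney and lung for 4, 13, 17 and 3; no such count moved by over 1.5 times. With 1 library left out, the members called for CPB against control ran between 29 and 49 in liver, 1 and 12 in heart, 0 and 9 in lung and 2 and 4 in kidney; for linrodostat against control the ranges were 4 and 37 in liver, 0 and 12 in ileum and 0 and 6 in kidney. DESeq2 called 5 members in heart and 5 in lung for CPB against control, 3 in ileum for linrodostat against CPB and 13 in ileum for linrodostat against control, where median-ratio size factors gave 1. For linrodostat against control, no filter gave 1 in kidney and 18 in liver, and only the 2 arms compared gave 0 in kidney. In lung, CPB against control gave 1 by limma-voom, 0 with only the 2 arms and 0 without control animal 1 and CPB animal 25; in heart it gave 7 without control animal 10 and CPB animal 19. These 2 pairs were chosen after seeing the data. Limma-voom gave 1 member for liver over lung, and without heart the control contrasts gave 67 in liver, 65 in kidney and 25 in ileum. The causes were not tested. Of 33 called values of named genes, 19 were kept under every alternative run. Low counts limit COX6B2, COX7B2 and COX8H outside the heart.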
